A study of Mus musculus with 6 samples.

Results

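Enteroendocrine hormone genes encode the peptides, and the serotonin-making enzyme, by which scattered endocrine cells of the gut lining report on the meal. The set studied here holds 10 genes, chosen by name from the 23390 genes of the count table: Cck, Gcg, Gip, Sct, Sst, Nts, Pyy, Tac1, Ghrl and Tph1. All 10 were found once each, and all 10 passed the filter on low counts that left 13740 genes for testing. RNA was sequenced from viable cells of the C57BL/6 mouse small intestine, sorted as EpCAM-positive (an epithelial marker) and CD45-negative (a leukocyte marker). There were 3 libraries from Vil.Cre Maf.flox mice, in which Cre under the villin promoter deletes floxed Maf in intestinal epithelium; these are called Maf-deleted below. The 3 controls came from Maf.flox mice, which carry the floxed gene without Cre. The product of Maf is the transcription factor c-Maf, of the basic leucine zipper class. Neither age nor sex was labelled, no group carried Cre without floxed Maf, and the labels do not say whether each library came from its own mouse or preparation, so p-values rest on the spread among these 6 samples, which may be technical.

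Enteroendocrine cells arise from crypt stem cells and make up a small minority of the epithelium. Each subtype is known by its hormones: I cells for cholecystokinin, K cells for GIP, L cells for the proglucagon peptides and peptide YY, N cells for neurotensin, D cells for somatostatin, X cells for ghrelin and enterochromaffin cells for serotonin. The subtypes overlap, and a cell can change its hormone as it moves from crypt to villus. In enterochromaffin cells Tac1 is known as the crypt hormone and Sct as the villus one, and in the L-cell lineage Gcg gives way to Nts along the same path, under the influence of BMP signals. This is background and was not measured here.

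Total counts lay between 17464355 and 24802525 per library, so that 1 CPM (a count scaled to library size) stands for 17.5 to 24.8 counts. Maf had 9398, 5615 and 3893 counts in control replicates 1, 2 and 3, and 16, 1 and 1 in the Maf-deleted replicates, as the labels require. The sorted cells carried the epithelial markers Krt8 and Krt19 at 6632 ± 507 and 3442 ± 171 CPM in controls (SD, n = 3). The 10 enteroendocrine markers on the marker list (Chga, Chgb, Scgn, Neurod1, Insm1, Rfx6, Pcsk1, Cpe, Scg3 and Fev) were all detected. Their summed level was 320.2, 643.7 and 234.3 CPM in control replicates 1, 2 and 3 and 376.1, 292.8 and 200.6 CPM in Maf-deleted replicates 1, 2 and 3. Chga and Chgb made up 78 to 87.1% of this sum. Control replicate 2 was the highest of the 6 libraries in the sum and in 6 of the 10 markers (Chga, Chgb, Neurod1, Pcsk1, Cpe and Scg3), but not in Scgn, Insm1, Rfx6 or Fev. Of the 10 markers, 7 had log2 fold changes (Maf-deleted over control) below 0 and 3 above 0, with a median of -0.18 that became 0.10 without control replicate 2, and 0 were called between genotypes. Among cells that the sort should exclude, summed leukocyte markers were at 24.6 to 34.6 CPM in controls and 32.2 to 41.8 CPM in Maf-deleted libraries, and glial and mesenchymal markers at 0.617 to 1.09 and 0.642 to 1.06 CPM. The largest part of the leukocyte sum was Lcp1, with means of 17.45 and 15.99 CPM in controls and Maf-deleted libraries. Itgam stood at 6.8 and 12.57 CPM, but Ptprc, the gene of CD45, at 1.14 and 0.315 CPM. Of 5 leukocyte markers tested, 2 had log2 fold changes below 0 and 3 above 0, and 0 were called. In bulk RNA, fewer enteroendocrine cells and less hormone RNA per cell cannot be told apart.

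Upstream sequences of 4 genes are shown, since their values differed in direction: Sct and Pyy, with lower means in Maf-deleted libraries, and Cck and Gcg, with higher ones. Each is the 250 bases before the RefSeq start (GRCm38.p6), written 5′ to 3′. In each of these the RefSeq start lay within 3 bases of the deposited gene start. Capitals mark 4 motifs, each searched on both strands. TATAAA is the TATA box. TGCTGA is part of the Maf recognition element. CAGATG is an E-box of the kind that basic helix-loop-helix factors bind. A further E-box form is CAGCTG.
Sct, chr7:141279134-141279383, minus strand: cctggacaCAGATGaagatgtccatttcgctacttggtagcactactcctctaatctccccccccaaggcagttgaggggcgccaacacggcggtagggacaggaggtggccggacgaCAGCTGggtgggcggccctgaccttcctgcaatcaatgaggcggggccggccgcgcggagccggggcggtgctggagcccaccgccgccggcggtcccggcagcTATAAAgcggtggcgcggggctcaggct
Pyy, chr11:102107833-102108082, minus strand: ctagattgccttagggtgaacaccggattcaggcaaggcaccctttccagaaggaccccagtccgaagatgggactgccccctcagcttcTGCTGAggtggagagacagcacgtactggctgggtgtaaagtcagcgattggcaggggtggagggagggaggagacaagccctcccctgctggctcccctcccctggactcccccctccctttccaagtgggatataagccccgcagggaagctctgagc
Cck, chr9:121495695-121495944, minus strand: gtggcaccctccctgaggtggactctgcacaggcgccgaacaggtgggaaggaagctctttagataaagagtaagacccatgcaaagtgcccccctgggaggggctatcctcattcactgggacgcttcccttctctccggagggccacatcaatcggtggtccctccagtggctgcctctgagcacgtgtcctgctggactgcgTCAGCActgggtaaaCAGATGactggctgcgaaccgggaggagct
Gcg, chr2:62483654-62483903, minus strand: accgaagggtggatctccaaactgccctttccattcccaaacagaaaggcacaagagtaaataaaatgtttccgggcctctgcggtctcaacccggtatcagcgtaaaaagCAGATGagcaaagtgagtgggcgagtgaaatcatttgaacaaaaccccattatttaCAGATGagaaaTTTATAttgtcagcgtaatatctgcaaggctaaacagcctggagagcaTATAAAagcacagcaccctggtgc
Over the 10 genes, TGCTGA or its reverse complement was in 3 upstream windows (Cck, Sst and Pyy), against 16.1% of 32851 RefSeq windows of the same length. TATAAA was in 2, Gcg and Sct, against 12.4% of all windows. CAGATG was in 4, Cck, Gcg, Sct and Tac1, against 14.4%. The other E-box form was in 4, Gip, Sct, Nts and Ghrl, against 13%. The RefSeq start was 182, 114, 68 and 31 bases from the deposited gene start for Tac1, Sst, Nts and Ghrl. The windows of Tac1, Sst and Nts therefore reach into the deposited gene, and the CAGATG of Tac1 lies inside it. A match is a run of letters and not a known binding site. The TGCTGA motif stood in genes with values on either side of 0.

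No hormone gene passed the test between genotypes. By the quasi-likelihood test of edgeR, adjusted over 13740 genes by the Benjamini-Hochberg method, 0 of 10 had an adjusted p under 0.05, against 0.546% of all genes tested. At an unadjusted p under 0.05 there was 1 of 10, Ghrl, against 16.4% of all genes. DESeq2 and limma-voom also called 0 of 10, against 5.54% and 0.247% of all genes. The log2 fold change (Maf-deleted over control) was below 0 for 7 genes and above 0 for 3, with a median of -0.89, against a median of -0.01 and 51.6% below 0 over all genes tested. Leaving out control replicate 2 brought this median to -0.25. The adjusted p lay between 0.274 and 0.858. In FPKM, which allows levels to be set side by side between genes, the means over the 6 libraries ran in the order Sct (89), Sst (76.8), Gcg (49.7), Pyy (46.6), Gip (34.7), Nts (33.1), Cck (8.82), Tac1 (4.1), Tph1 (1.54) and Ghrl (1.34). Cck lay below Nts, and Tac1 below Cck, in every library, while all other neighbours in this order changed places in at least 1 library. The plot of CPM by library shows the values behind each gene.

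**Figure D1:**
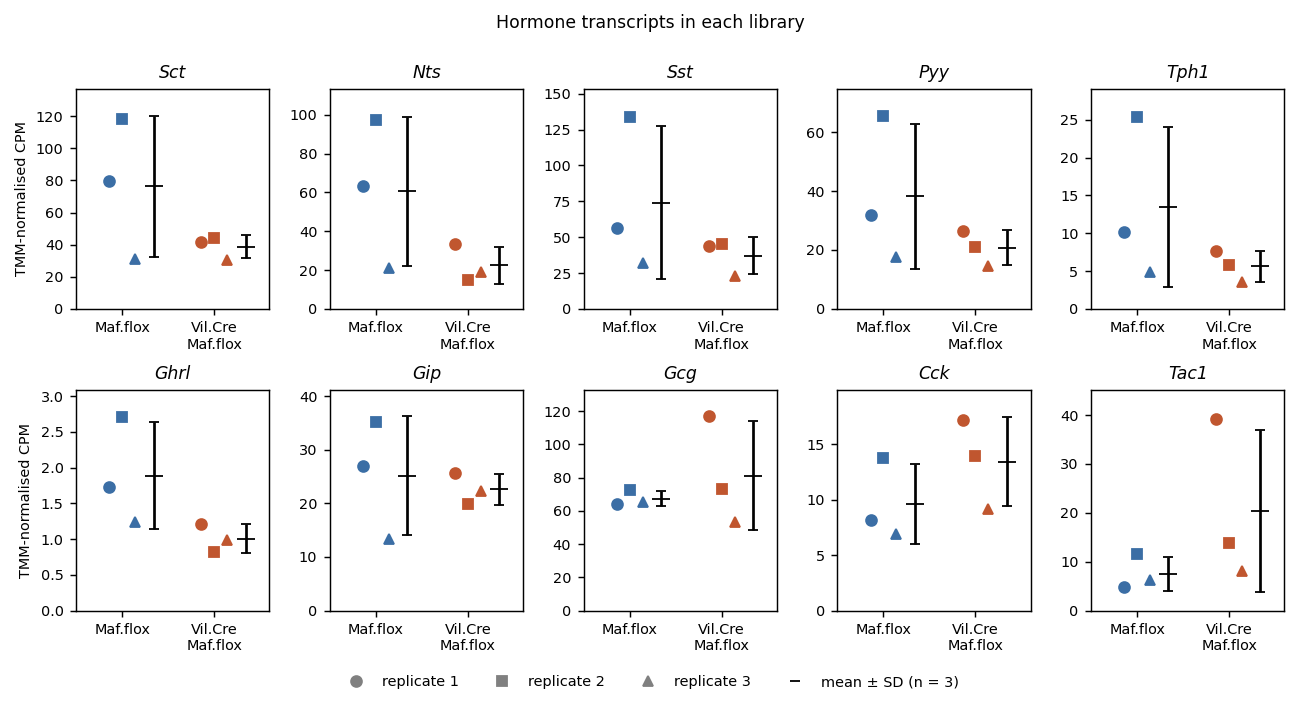
TMM-normalised CPM of the 10 hormone genes (vertical axes, linear, each from 0) in 3 control (Maf.flox, blue) and 3 Maf-deleted (Vil.Cre Maf.flox, orange) libraries. Symbols give the replicate number and black marks the mean with SD. The control square (replicate 2) is the highest control for all 10 genes, and Ghrl is the one gene whose groups do not overlap.

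Gene positions are on GRCm38, as deposited. Secretin, encoded by Sct (ENSMUSG00000038580, chromosome 7, 141278330 to 141279133, minus strand), is the hormone that calls for bicarbonate from the pancreas. Sct had 79.6, 118.6 and 30.8 CPM in control replicates 1, 2 and 3 and 41.7, 44.3 and 30.5 CPM in Maf-deleted replicates 1, 2 and 3. Control replicate 3 lay at the level of the lowest Maf-deleted library, and the groups overlapped. Its log2 fold change was -0.98 (SE 0.478, 95% interval -2.15 to 0.20, adjusted p = 0.386 by edgeR). Without control replicate 3 it was -1.35 and passed (adjusted p = 0.0122 by edgeR), in a fit that called 5% of all genes. It was the one hormone gene called in any of the fits tried at that threshold.

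Neurotensin, encoded by Nts (ENSMUSG00000019890, chromosome 10, 102481756 to 102490486, minus strand), is released after fat and slows gut movement. Nts had 63.2, 97.4 and 20.8 CPM in controls and 33.3, 14.9 and 19 CPM in Maf-deleted libraries, in the same order of replicates. Only control replicates 1 and 2 stood above all Maf-deleted libraries. Its log2 fold change of -1.43 (SE 0.625, 95% interval -3.00 to 0.14, adjusted p = 0.348 by edgeR) was the most negative of the 10. It ran from -1.84 to -0.90 with each library left out in turn.

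Peptide YY, encoded by Pyy (ENSMUSG00000017311, chromosome 11, 102106676 to 102107832, minus strand), is the other L-cell hormone that slows transit and curbs appetite. Pyy had 31.8, 65.4 and 17.6 CPM in control replicates 1, 2 and 3 and 26.5, 21.1 and 14.7 CPM in Maf-deleted replicates 1, 2 and 3. The groups overlapped, and the log2 fold change of -0.88 (SE 0.499, 95% interval -2.11 to 0.34) became -0.25 without control replicate 2.

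Somatostatin, encoded by Sst (ENSMUSG00000004366, chromosome 16, 23889573 to 23890958, minus strand), is the inhibitory hormone of D cells. Sst had 56.1, 134 and 32.2 CPM in controls and 43.5, 45.3 and 22.6 CPM in Maf-deleted libraries. Again replicate 2 alone stood far above the rest, and the log2 fold change of -0.997 (SE 0.593, 95% interval -2.49 to 0.50) became -0.25 without it.

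Tph1 (ENSMUSG00000040046, chromosome 7, 46644641 to 46672537, minus strand) encodes tryptophan hydroxylase 1, the rate-limiting enzyme of serotonin synthesis in enterochromaffin cells. Tph1 had 10.2, 25.4 and 4.88 CPM in controls and 7.61, 5.81 and 3.51 CPM in Maf-deleted libraries. The highest control was 5.19 times the lowest, the widest range of any hormone gene among the controls. The log2 fold change was -1.26 (SE 0.61, 95% interval -2.72 to 0.21, adjusted p = 0.375 by edgeR), and -0.42 without control replicate 2. Ddc, which turns the product of Tph1 into serotonin, stood at 115.4 ± 11.8 CPM in controls and 82 ± 15.6 CPM in Maf-deleted libraries (SD, n = 3 each) with no overlap, and did not pass either (log2 fold change -0.49, adjusted p = 0.156 by edgeR). Lower values without overlap held for 10.5% of all genes tested. Mast cells also make Tph1 in other tissues. Of their markers 5 of 11 were analysed: Mcpt1, Mcpt2, Tpsb2 and Hdc were each under 1 CPM in all libraries, while Kit, which epithelial cells can express too, stood at 40.5 and 42.7 CPM in controls and Maf-deleted libraries. The 5 markers analysed summed to 33.4 to 46.5 CPM in controls and 35.4 to 48 CPM in Maf-deleted libraries, nearly all of it Kit. Mcpt1 and Mcpt2 were at 0 in all controls, and the part of mast cells in the Tph1 values was not tested.

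Ghrelin, encoded by Ghrl (ENSMUSG00000064177, chromosome 6, 113716119 to 113719880, minus strand), is the hunger hormone and is made mainly in the stomach. Ghrl had 41, 52 and 26 counts in control replicates 1, 2 and 3, or 1.72, 2.71 and 1.23 CPM. It had 24, 14 and 23 counts in Maf-deleted replicates 1, 2 and 3, or 1.22, 0.822 and 0.984 CPM. All Maf-deleted libraries lay below all control libraries, but control replicate 3 exceeded Maf-deleted replicate 1 by less than counting error: the exact 95% Poisson intervals were 17 to 38.1 and 15.4 to 35.7 counts. Non-overlap of this kind, in the lower direction, held for 10.5% of all genes tested. The log2 fold change was -0.89 (SE 0.367, 95% interval -1.73 to -0.06, unadjusted p = 0.0386, adjusted p = 0.274 by edgeR), and -0.54 without control replicate 2. Ghrl overlaps 2 annotated genes on the other strand, Gm26982 and Gm44033, and whether counting used strand was not stated. Reads in the overlap may therefore have been added to its counts or left out of them. The other 9 hormone genes overlap no annotated gene in GENCODE M21. Mboat4, which acylates ghrelin, was under the filter on low counts at 0.155 and 0.313 CPM. The stomach markers Gkn3 and Atp4a, for comparison, were under 1 CPM on average in both genotypes.

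GIP, encoded by Gip (ENSMUSG00000014351, chromosome 11, 96024545 to 96030831, plus strand), is the incretin of the proximal intestine. Gip had 27, 35.2 and 13.4 CPM in controls and 25.6, 19.9 and 22.3 CPM in Maf-deleted libraries. The Maf-deleted libraries all lay inside the control range. Its log2 fold change of -0.15 (SE 0.317, 95% interval -0.90 to 0.59) turned to 0.17 without control replicate 2, so no direction can be given.

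Gcg (ENSMUSG00000000394, chromosome 2, 62474530 to 62483650, minus strand) encodes proglucagon, which enteroendocrine cells cut into GLP-1 and GLP-2. Gcg had 64.1, 72.8 and 65.5 CPM in controls and 117.1, 73.1 and 53.5 CPM in Maf-deleted libraries. The controls were close together, with an SD of 0.10 in log2 CPM against 0.51 to 1.18 for the other 9 genes. Its log2 fold change was 0.27 (SE 0.259, 95% interval -0.34 to 0.87), and -0.09 without Maf-deleted replicate 1. Pcsk1, the prohormone convertase that makes GLP-1, stood at 25.1 ± 3.41 and 21.7 ± 5.83 CPM in controls and Maf-deleted libraries (SD, n = 3 each). Pcsk2, which makes glucagon in pancreatic alpha cells, had 0 counts in each library, which at these depths allows up to 0.121 to 0.172 CPM (3 counts per library; counting error only).

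Cholecystokinin, encoded by Cck (ENSMUSG00000032532, chromosome 9, 121489824 to 121495694, minus strand), empties the gallbladder and signals satiety. Cck had 8.2, 13.7 and 6.93 CPM in controls and 17.2, 14 and 9.16 CPM in Maf-deleted libraries. Both upper Maf-deleted libraries exceeded all controls, and replicate 3 did not. Maf-deleted replicate 2 exceeded control replicate 2 by little, at 14 against 13.7 CPM from 238 and 264 counts. The log2 fold change of Cck was 0.48 (SE 0.309, 95% interval -0.23 to 1.20, adjusted p = 0.49 by edgeR), and stayed between 0.27 and 0.83 with each library left out in turn.

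Tac1 (ENSMUSG00000061762, chromosome 6, 7554879 to 7565834, plus strand) encodes the tachykinins substance P and neurokinin A, which enterochromaffin cells make beside serotonin. Tac1 had 4.75, 11.5 and 6.21 CPM in controls and 39.2, 13.9 and 8.13 CPM in Maf-deleted libraries. Maf-deleted replicate 1 was 4.82 times replicate 3 of the same genotype, and replicate 3 lay below control replicate 2. The log2 fold change of 1.45 (SE 0.657, 95% interval -0.16 to 3.06, adjusted p = 0.353 by edgeR) was the highest of the 10, and was 0.56 without Maf-deleted replicate 1. Enteric neurons express Tac1 as well. Of their markers, Ret stood at 9.6 and 9.06 CPM in the 2 genotypes and Snap25, also an enteroendocrine gene, at 1.05 and 0.482 CPM, while Elavl3, Elavl4, Prph, Uchl1, Tubb3 and Chat were each under 1 CPM in every library. The 8 markers analysed summed to 7.73 to 14.1 CPM in controls and 7.7 to 13.1 CPM in Maf-deleted libraries.

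**Figure D2:**
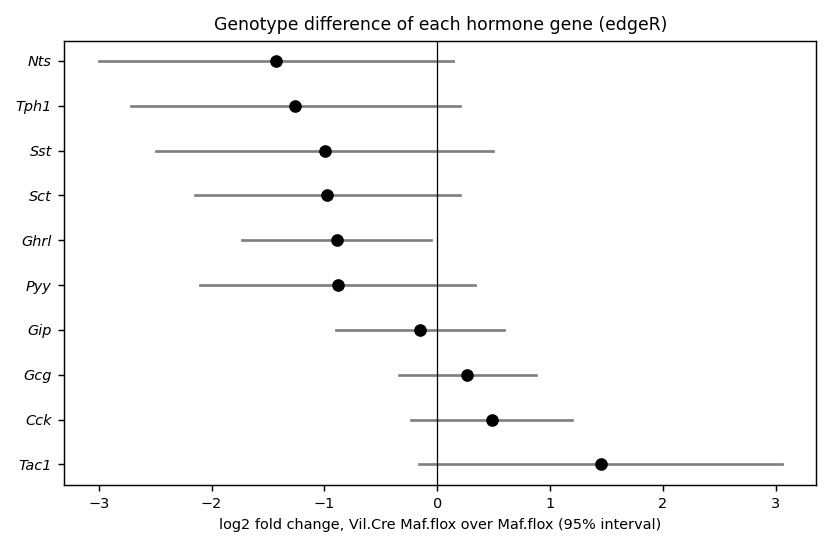
Log2 fold change of each hormone gene, Maf-deleted over control (horizontal axis), from edgeR on 3 libraries per genotype. Points are estimates and grey lines 95% intervals. The estimates run from -1.43 for Nts to 1.45 for Tac1, and every interval except that of Ghrl holds 0.

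**Figure D3:**
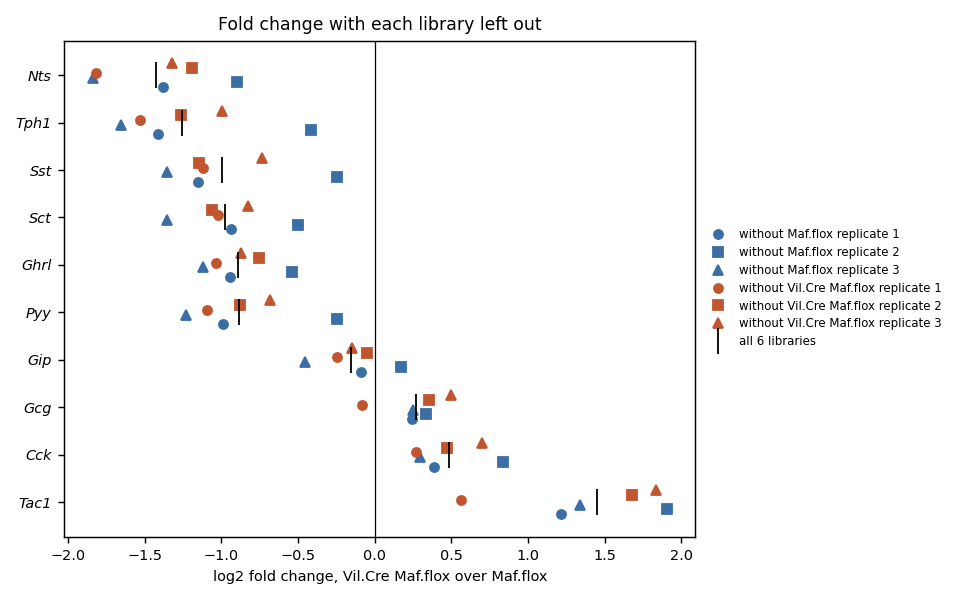
The same log2 fold change with 1 library left out in turn (blue, a control library; orange, a Maf-deleted library; black ticks, all 6). Without control replicate 2 (blue squares) the values of Sst, Pyy, Sct and Tph1 move to -0.25, -0.25, -0.50 and -0.42, and without Maf-deleted replicate 1 (orange circles) that of Tac1 moves to 0.56.

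The spread between libraries of the same genotype was wide for these genes. The median SD of log2 CPM was 0.83 among control libraries and 0.51 among Maf-deleted libraries for the 10 genes, against 0.18 and 0.19 for all genes tested. Control replicate 2 was the highest control for 10 of 10 genes and control replicate 3 the lowest for 8 of 10. Among Maf-deleted libraries, replicate 1 was the highest for 8 and replicate 3 the lowest for 7. The granule protein genes Chga and Chgb, which every enteroendocrine subtype can carry, stood at 128.5 ± 74.4 and 205.9 ± 126 CPM in controls and at 84.9 ± 27.6 and 146.8 ± 41.5 CPM in Maf-deleted libraries (SD, n = 3 each). Scgn, Insm1 and Rfx6, also enteroendocrine markers, had log2 fold changes of 0.36, 0.15 and 0.45, and like Chga and Chgb they were not called. The summed hormone level was 346.5, 576.8 and 199.5 CPM in controls and 352.9, 253 and 184.5 CPM in Maf-deleted libraries, a ratio of means of 0.704 with overlapping groups, and of 0.965 without control replicate 2. It was 1 library, control replicate 2, that stood above every Maf-deleted library in this sum.

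**Figure D4:**
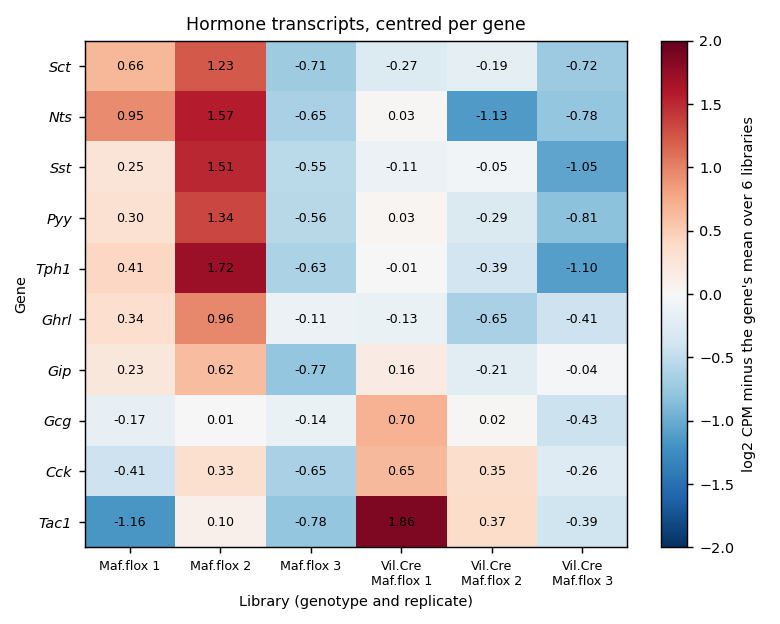
Log2 CPM of each hormone gene minus its mean over the 6 libraries (rows, genes; columns, libraries, with Maf.flox as control and Vil.Cre Maf.flox as Maf-deleted; red above and blue below the mean). Control replicate 2 is above the mean for all 10 genes, and Maf-deleted replicate 1 is highest for Tac1 at 1.86, Gcg at 0.70 and Cck at 0.65.

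Across the 6 libraries, 2 sets of genes with alike patterns were picked out after their values had been seen. Pyy, Tph1, Sst and Sct followed each other closely, with Pearson's r in log2 CPM between 0.944 (Sct and Sst) and 0.999 (Pyy and Tph1). Cck, Gcg and Tac1 followed each other with r between 0.755 and 0.897. Between Tac1 and Sct r was -0.09, and between Gcg and Sct 0.08. These are descriptions over 6 libraries of 2 genotypes that share the library differences given above, without a test.

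Ratios of 2 hormone genes within a library do not depend on the scaling of libraries. They were chosen after the values had been seen and carry no test. Sct had 16.7, 10.3 and 4.96 counts for each count of Tac1 in control replicates 1, 2 and 3, and 1.06, 3.2 and 3.75 in Maf-deleted libraries. The genotypes did not overlap, with means of 10.7 and 2.67. Nts had 0.986, 1.34 and 0.318 counts for each count of Gcg in controls and 0.285, 0.204 and 0.356 in Maf-deleted libraries, and here control replicate 3 lay among the Maf-deleted libraries. Cck had 0.258, 0.21 and 0.395 counts for each count of Pyy in controls and 0.649, 0.663 and 0.624 in Maf-deleted libraries, with no overlap. Of the 45 pairs among the 10 genes, 18 did not overlap between genotypes. The same held for 21% of all pairs among the 13713 tested genes with counts in every library, and for 20.6% of single genes in CPM. The pairs share genes and libraries, and Tac1 and Cck each took part in 6 of the 18, Gip in 5 and Gcg in 1. The ratio of the proximal hormones Gip, Cck, Sct and Ghrl to the distal hormones Gcg, Pyy and Nts, in summed CPM, was 0.653 ± 0.129 in controls and 0.643 ± 0.138 in Maf-deleted libraries (SD, n = 3 each).

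Set against the summed CPM of the 10 enteroendocrine markers, Cck and Tac1 were higher in every Maf-deleted library than in any control. With the same denominator 3.14% of all genes tested were higher without overlap and 1.31% lower, while 20.6% did not overlap in CPM. The marker sum ran from 200.6 to 643.7 CPM, and dividing by it widens the spread of genes that do not follow it. These shares are therefore not a like background for genes that vary with the markers. Cck stood at 2.56, 2.13 and 2.96% of the marker sum in controls and at 4.57, 4.77 and 4.56% in Maf-deleted libraries, a ratio of means of 1.82. Tac1 stood at 1.48, 1.79 and 2.65% in controls and 10.4, 4.73 and 4.05% in Maf-deleted libraries, a ratio of means of 3.24. Pyy stood at 9.94, 10.2 and 7.49% against 7.04, 7.2 and 7.32%, and Tph1 at 3.18, 3.94 and 2.08% against 2.02, 1.99 and 1.75%. These 2 genes were lower in every Maf-deleted library, by little in control replicate 3, and their groups overlapped when 18 granule and secretion genes were the denominator instead. The other 6 genes overlapped with either denominator. Both lists hold Chga, Chgb, Scgn and Scg3, with Chga and Chgb as large parts of each sum, so the second denominator is no independent check of the first. With the marker sum as a term in the edgeR fit, a choice made after seeing the data, the log2 fold changes of Cck and Tac1 were 0.79 (SE 0.166) and 1.76 (SE 0.435), neither called (adjusted p = 0.112 and 0.203), and 0 of 10 genes passed against 0.4% of all genes.

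**Figure D5:**
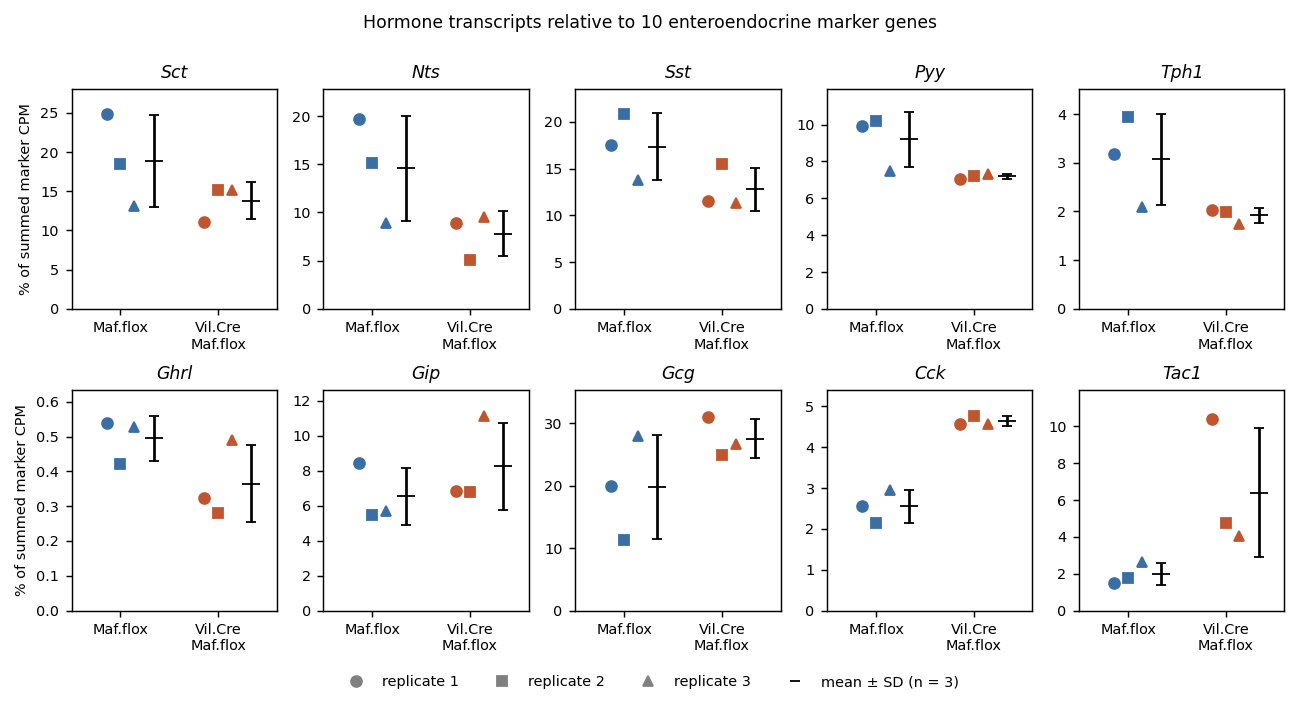
Each hormone gene as a percentage of the summed CPM of 10 enteroendocrine marker genes (vertical axes, linear, from 0), by library; colours, symbols and error bars (mean and SD, n = 3) are as in the plot of CPM by library. Cck lies at 2.13 to 2.96% in controls and 4.56 to 4.77% in Maf-deleted libraries.

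The genes around the hormones were taken from lists by role. Of 16 genes of hormone processing and serotonin handling, 12 were tested and 0 were called. All 12 had log2 fold changes below 0 (median -0.46, or -0.32 without control replicate 2), against 51.6% of all genes tested. The list mixes genes of very unlike level, such as Maoa at 920.9 CPM and Pcsk1 at 25.1 CPM in controls. The changes were unlike too, and those of Pcsk1 and Cpe were small, at -0.21 and -0.15. The smallest p belonged to the hormone-degrading peptidases of the brush border: Dpp4, which inactivates GLP-1 and GIP, stood at 589.9 ± 178 and 241.8 ± 29.3 CPM in controls and Maf-deleted libraries (log2 fold change -1.29, adjusted p = 0.058 by edgeR), and Mme, or neprilysin, at 122.3 ± 53 and 20.4 ± 7.56 CPM (-2.58, adjusted p = 0.0775 by edgeR). Pcsk1n, a granule protein that binds Pcsk1, had a log2 fold change of -1.66 and an adjusted p of 0.149 by edgeR. Among 18 granule and secretion genes, 16 were tested and 0 called, with 13 below 0. Their median of -0.42 became 0.06 when control replicate 2 was left out. Their smallest p belonged to Cacna1a, Scg2 and Snap25, with log2 fold changes of -0.79, -0.73 and -1.09. Of 23 enteroendocrine transcription factors 20 were tested and 0 called (13 below 0, median -0.11, or -0.02 without control replicate 2). The smallest p among them was that of Lmx1a, a factor of enterochromaffin cells, at 2.63 ± 1.44 and 0.897 ± 0.0161 CPM (log2 fold change -1.54, adjusted p = 0.159 by edgeR). Sox4 and St18 followed with -0.42 and -0.85.

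Of 22 other gut peptides, 13 were analysed and 5 tested. Guca2b, which encodes uroguanylin, a peptide that drives fluid secretion, fell from 500.9 ± 124 CPM in controls to 214.7 ± 32.7 CPM in Maf-deleted libraries (SD, n = 3 each). With a log2 fold change of -1.22 (SE 0.199, adjusted p = 0.0457 by edgeR) it was the one gene of this list called. The call was lost in 5 of 6 fits that left out 1 library, all except the one without control replicate 3 (adjusted p 0.00204 to 0.245 by edgeR, log2 fold change -1.41 to -1.07), and with limma-voom (adjusted p = 0.0652), sex as a term (0.0697) and the marker sum as a term (0.0715). Fgf15, the bile acid hormone of the ileum, had a value of -1.68 and Iapp, or amylin, one of -1.38, neither called.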

How the data were processed

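Counts and FPKM were deposited by the authors for 23390 genes in 6 libraries. The submitters' processing notes name the build GRCm38 (mm10), the aligner HISAT2 2.0.5, the counter featureCounts 1.5.0-p3 and DESeq2; strand use was not given in the sources used here. The deposited counts are raw whole numbers. The FPKM deposited by the authors equal counts divided by gene length and a library size of 0.953 to 1.07 times the total, and served only to order levels between genes.

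Counts were tested with edgeR 4.0.16 (R 4.3.3): filterByExpr with a least count of 10, TMM scaling, quasi-likelihood F test with robust estimation, genotype as the only term, Benjamini-Hochberg adjustment over 13740 genes, threshold 0.05. Intervals are 95%. The code was tested on simulated data. No library copied another (chi-square per gene within a genotype 36 to 132). The hormone genes and gene lists were chosen with earlier results of these data known. Named genes are the 10 hormone genes, called list members, the 3 smallest p per list and the 2 highest markers. Ddc, Pcsk1, Pcsk2, Mboat4 and Cpe were named for their role. Further list members were named after their values had been seen, where a sum or count hid them. Alternatives were RLE and upper quartile scaling, no filter, a least count of 50, DESeq2 1.42.0, limma-voom (limma 3.58.1), a threshold of 0.1, a replicate block, sex as a term and each library left out. Promoter sequences came from RefSeq (GRCm38.p6), which held all 10 genes by name. The RefSeq start nearest the deposited gene start was used, up to 182 bases away from it.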

Additional observations from a re-analysis of the deposited data

How the results depend on the processing

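Across 15 alternatives and the marker term added after seeing the data, the hormone genes called stayed at 0 of 10 except for 1, Sct, without Maf.flox replicate 3. The count of all genes called moved more: from 75 to 365 with no filter, 761 with DESeq2, 34 with limma-voom, 440 with the replicate block, 38 with the sex term and 372 at a threshold of 0.1, and with 1 library left out it was 31, 12 and 701 without Maf.flox replicates 1, 2 and 3 and 12, 23 and 8 without Vil.Cre Maf.flox replicates 1, 2 and 3. The sex term used 2 females and 1 male in Maf.flox and 1 and 2 in Vil.Cre Maf.flox, read from Xist and Y-linked counts. The median log2 fold change of the hormone genes ran from -1.17 to -0.25 with 1 library left out. With 1 library left out Gip ran from -0.46 to 0.17, turning sign without Maf.flox replicate 2, and Gcg from -0.0855 to 0.50, turning sign without Vil.Cre Maf.flox replicate 1. Gip also turned to 0.17 with the marker term. The cause was not tested. Every other hormone gene kept its sign in all of these fits, Ghrl not being tested at a least count of 50. Deviations from group means correlated at 0.0917, -0.0256 and 0.269 between libraries of the same number. The labels name no pairs and the main fit used none, but these values cannot settle whether libraries of the same number were paired. The replicate block called 0 hormone genes, against 440 over all genes. A hormone gene at 1 CPM has 17.5 to 24.8 counts, which limits what can be seen for Ghrl.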

Other observations

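Sensors and receptors of the hormone system were described by counts. Of 24 nutrient and irritant sensors 14 were tested, with 9 below 0, a median log2 fold change of -0.28 (-0.12 without Maf.flox replicate 2) and 1 called, the peptide transporter Slc15a1, which fell from 377.6 ± 163 to 64.5 ± 12.9 CPM (SD, n = 3 each; log2 fold change -2.55, adjusted p = 0.0365 by edgeR). Its call was lost in 4 of 6 fits that left out 1 library, all except those without Maf.flox replicate 2 or 3 (adjusted p 0.00103 to 0.184 by edgeR, log2 fold change -2.82 to -2.17), with no filter (adjusted p = 0.09) and with sex as a term (0.0957). The glucose transporter Slc5a1 had a value of -1.08 and Ffar3, a receptor for short-chain fatty acids, one of -2.25, neither called. Both transporters are also enterocyte genes. Of 24 hormone receptors 4 were tested, 0 called, with Sstr1 at -1.51, Sstr3 at -0.24 and Vipr1, the epithelial receptor for vasoactive intestinal peptide, at -0.18.

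The genes whose log2 CPM followed the mean standardised level of the 10 hormone genes most closely over the 6 libraries were Gm43980, Dcaf7, Fam192a, Chgb and Ubtd1, with Pearson's r of 0.988, 0.987, 0.985, 0.984 and 0.981. With 6 libraries, 0.466% of 13730 other genes had an r above 0.9. Chgb, the granule protein chromogranin B, is an enteroendocrine gene, with 161.7, 347.6 and 108.3 CPM in Maf.flox and 187.9, 147.8 and 104.8 CPM in Vil.Cre Maf.flox. The summed proximal intestine markers did not overlap between genotypes (659.5 ± 216 and 263 ± 18.9 CPM), with lactase (Lct) at 425.8 and 14.7 CPM. Without Lct the other proximal markers summed to 233.7 ± 41.3 and 248.3 ± 19.3 CPM and overlapped, but their values went in opposite directions. Slc40a1 and Adh6a were higher in every Vil.Cre Maf.flox library, and Fabp1, Gstm1 and Cyp2b10 were lower in every one, none of them called. Over all genes tested, 20.6% did not overlap in either direction, and 10.5% were lower without overlap. Of 8 proximal markers tested, Lct included, 6 had log2 fold changes below 0 and 2 above 0, with a median of -0.92. The summed distal markers overlapped too (10290 ± 3405 and 10340 ± 3603 CPM), but most of this sum was Fabp6, at 6878 and 8207 CPM. Of 9 distal markers tested, 8 had log2 fold changes below 0 and 1 above 0, with a median of -0.34 and 0 called. Cubn was lower in every Vil.Cre Maf.flox library, at 708.9 and 151.9 CPM on average.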
